A study of Mus musculus with 7 samples.

Results

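The expression of 10 genes of apolipoproteins and lipid handling (Apoe, Apoc1, Apod, Clu, Abca1, Abcg1, Lpl, Ch25h, Soat1 and Plin2) was described in mouse cortex and hippocampus. They were taken by name, with earlier results of these data known, and all 10 were among the 20859 genes of the count table. The study profiled bulk RNA from both regions of 24 mice by mcSCRB-seq, a 3' counting method in which each well is 1 tissue sample and wells are sequenced together in a library pool. The groups were FAD mice given CD38, as the sample sheet names it without further description (7 cortex and 7 hippocampus wells), FAD mice given IgG (7 and 7) and WT mice given PBS (9 and 8). The labels give the disease line only as FAD and name neither its transgenes nor their promoter. Neither age nor sex is among the labels used here. WT mice received PBS and FAD mice an injection named IgG or CD38, so genotype and injection differed together in every comparison with WT. A FAD mouse of pool 8, named IgG in its well name and CD38 in the sheet, was left out with its 2 wells, which left 23 mice in 7 pools.

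As background, Apoe and Clu are the main apolipoproteins of brain lipoprotein particles, which astrocytes and activated microglia load with cholesterol and phospholipid through the transporters Abca1 and Abcg1. The liver X receptors, switched on by oxysterols such as the product of Ch25h, induce several of these genes. Lpl hydrolyses triglycerides of lipoproteins, Soat1 esterifies cholesterol for storage, and Plin2 coats the lipid droplets where such esters are kept. Many of these genes are among those that microglia raise around amyloid plaques.

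Levels are given as CPM, a gene's count per 1000000 counts of the well. Since the assay counts 3' ends, a CPM serves to compare 1 gene between wells, and levels of different genes are not compared. Wells held 1270918 to 5101368 counts. Thy1 and App were higher in FAD IgG than in WT cortex, and their values in hippocampus and in FAD CD38 mice are not given here. Thy1 ranged from 529 to 1157 CPM in FAD IgG cortex, against 139 to 204 CPM in WT cortex, and App was 0.54 ± 0.13 (SE) log2 units higher in FAD IgG than in WT cortex (adjusted p = 0.014). Mitochondrial and nuclear ribosomal RNA (mt-Rnr1, mt-Rnr2 and Gm26917) took 3.15% to 20.6% of counts. That share moved with several of the 10 genes, and its values are given beside them below. Differences between groups were tested over all genes with edgeR's quasi-likelihood test within each region, with the pool in the model, and called at a Benjamini-Hochberg adjusted p under 0.05. In bulk tissue, more cells of a type and more RNA per cell cannot be told apart.

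In FAD IgG mice, 6 of the 8 genes tested in cortex and 6 of the 9 tested in hippocampus rose over WT, and none fell. The 6 were the same in both regions: Apoe, Apod, Abca1, Lpl, Soat1 and Plin2. Over all genes tested, 3.34% rose and 0.532% fell in cortex, and 4.48% rose and 0.416% fell in hippocampus. The median log2 fold change of the tested members was 0.70 in cortex and 0.88 in hippocampus, against 0.01 and 0.00 over all genes. Clu and Abcg1 were not called in either region in this fit. Apoc1 was tested in hippocampus only and Ch25h in neither, because too few wells reached the minimum of 10 counts in a well of median depth.

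**Figure D1:**
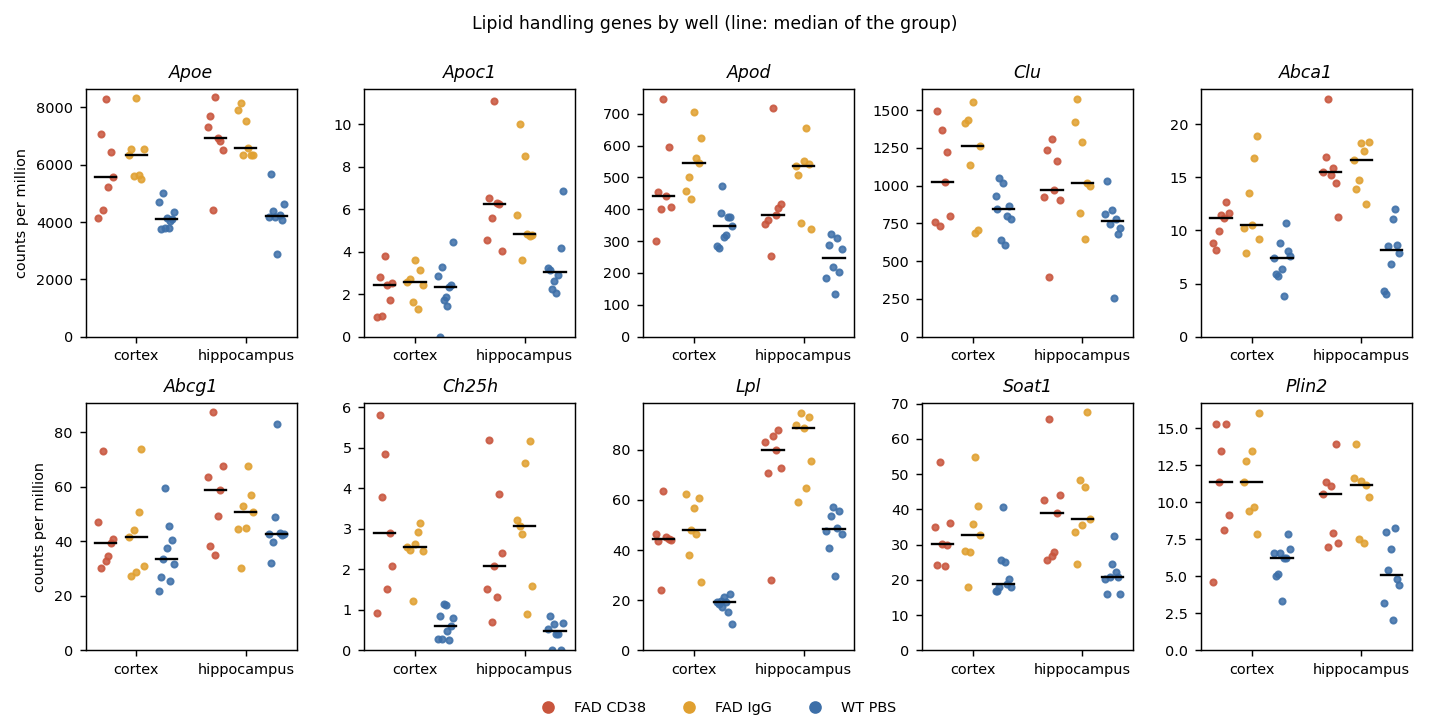
CPM of each of the 10 genes (vertical axes, from 0) in every well of FAD CD38, FAD IgG and WT PBS mice, by region, with a line at each group's median. Lpl shows every FAD IgG well above every WT well in both regions (27.4 to 62.1 against 10.5 to 22.6 CPM in cortex, 59.1 to 94.4 against 29.6 to 57.2 CPM in hippocampus), while the groups of Abcg1 overlap.

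Apoe, the ligand by which brain lipoproteins bind their receptors, had a lowest, median and highest level of 5512, 6338 and 8338 CPM in FAD IgG cortex, against 3761, 4121 and 5030 CPM in WT cortex. In hippocampus the values were 6324, 6571 and 8170 CPM in FAD IgG, against 2891, 4215 and 5677 CPM in WT. The groups did not overlap in either region, as was so with FAD IgG higher for 1.89% of all genes tested in cortex and 2.95% in hippocampus. The log2 fold change was 0.61 ± 0.14 (SE) in cortex (adjusted p = 0.0122) and 0.68 ± 0.13 in hippocampus (adjusted p = 0.00257). FAD IgG exceeded WT in each of the 6 pools that held both groups, by 0.42 to 0.93 log2 units in cortex.

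Apod, an apolipoprotein of the lipocalin family, reached 432, 545 and 705 CPM (lowest, median, highest) in FAD IgG cortex, against 277, 347 and 472 CPM in WT cortex. In FAD IgG hippocampus it reached 337, 536 and 657 CPM, against 133, 246 and 322 CPM in WT hippocampus. The hippocampal groups were apart, and in cortex 5 of 7 FAD IgG wells lay above all WT wells. Apod rose by 0.72 ± 0.13 log2 units in cortex (adjusted p = 0.00041) and by 1.08 ± 0.21 in hippocampus (adjusted p = 0.0022).

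Clu, the extracellular chaperone clusterin, spread widely within groups. Its levels were 684, 1260 and 1553 CPM in FAD IgG cortex, against 605, 848 and 1051 CPM in WT cortex. Hippocampal wells ranged from 644 to 1574 CPM in FAD IgG, with a median of 1017, against 254 to 1031 CPM in WT, with a median of 763. The groups overlapped, and the differences of 0.42 ± 0.18 log2 units in cortex (adjusted p = 0.247) and 0.53 ± 0.24 in hippocampus (adjusted p = 0.304) were not called. Of 18 alternative analyses, 1 called Clu in cortex, without wells of over 10% ribosomal RNA (0.64 ± 0.18, adjusted p = 0.0496). In hippocampus 3 of 18 did. They were the fits without those wells (0.63 ± 0.10, adjusted p = 7.26e-05), with limma quality weights (0.57 ± 0.13, adjusted p = 0.00388) and with the ribosomal RNA share, given below.

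Apoc1, a small apolipoprotein encoded beside Apoe, was near the detection limit. FAD IgG hippocampus held 3.59, 4.82 and 10 CPM, against 2.06, 3.02 and 6.83 CPM in WT hippocampus, from 10 to 36 counts a well in FAD IgG. All 7 FAD IgG wells lay above the WT median, but the difference of 0.88 ± 0.30 log2 units was not called (adjusted p = 0.13). It passed the filter mainly through FAD wells, since 7 of 7 wells of each FAD group and 2 of 8 WT wells reached the minimum. Leaving out pool 11 gave 1.14 ± 0.29 (adjusted p = 0.0275). Limma quality weights gave 0.93 ± 0.23 (adjusted p = 0.00791), and omission of wells of over 10% ribosomal RNA 0.99 ± 0.30 (adjusted p = 0.0462). In cortex the medians were 2.55 CPM in FAD IgG and 2.34 CPM in WT.

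Abca1 moves cholesterol onto lipid-poor apolipoproteins, the first step of particle formation. It had 7.88, 10.5 and 18.9 CPM in FAD IgG cortex, against 3.85, 7.41 and 10.7 CPM in WT cortex, where 3 of 7 FAD IgG wells lay above all WT wells. Hippocampal levels were 12.5, 16.6 and 18.4 CPM in FAD IgG, against 4.01, 8.2 and 12 CPM in WT, with no overlap. The rise was 0.69 ± 0.19 log2 units in cortex (adjusted p = 0.0366) and 1.11 ± 0.22 in hippocampus (adjusted p = 0.0022). In cortex the call held in 8 of 18 alternative analyses. It was lost without pool 5, 6, 7, 8, 9 or 10 (log2 fold changes of 0.56 to 0.75, adjusted p of 0.0529 to 0.158), with no pool in the model (0.67, adjusted p = 0.0539), with only the 2 groups compared (0.64, adjusted p = 0.132), with quality weights (0.49, adjusted p = 0.1) and without wells of over 10% ribosomal RNA (0.49, adjusted p = 0.337), while the hippocampal call held in all 18.

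Abcg1, which exports cholesterol to particles that already carry lipid, was not called. FAD IgG wells held 27.5, 41.8 and 74 CPM in cortex, against 21.7, 33.6 and 59.7 CPM in WT. In hippocampus they held 30.1, 50.7 and 67.5 CPM, against 32.1, 42.7 and 83.2 CPM in WT. The groups overlapped in both regions. Within pools, FAD IgG was above WT in 6 of 6 pools in hippocampus, by 0.07 to 0.64 log2 units, and in 4 of 6 in cortex (-0.62 to 0.97). The WT hippocampus well at 83.2 CPM was in pool 8, which held no FAD IgG well. The difference was 0.37 log2 units in cortex (95% confidence interval -0.14 to 0.87) and 0.23 in hippocampus (-0.31 to 0.77), so neither a rise nor a small fall is shown.

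Lpl, the lipase that frees fatty acids from lipoproteins, had the largest cortical log2 fold change of the 8 members tested there, 1.46 ± 0.16 (adjusted p = 7.66e-07). The 7 FAD IgG wells held 27.4, 48 and 62.1 CPM (lowest, median, highest) in cortex, against 10.5, 19.2 and 22.6 CPM in the 9 WT wells. In hippocampus FAD IgG wells held 59.1, 88.7 and 94.4 CPM, against 29.6, 48.2 and 57.2 CPM in WT. No well overlapped in either region. The hippocampal rise was 0.78 ± 0.17 (adjusted p = 0.00539). Within pools, the cortical difference ran from 1.17 to 1.63 log2 units and the hippocampal one from 0.40 to 0.90.

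Soat1, the enzyme that turns free cholesterol into cholesteryl ester, had 18, 32.9 and 55 CPM in FAD IgG cortex, against 16.8, 18.7 and 40.6 CPM in WT cortex. Its hippocampal levels were 24.5, 37.1 and 67.7 CPM in FAD IgG, against 16, 20.7 and 32.5 CPM in WT. The groups overlapped in both regions, with 6 of 7 FAD IgG wells above all WT wells in hippocampus. Soat1 rose by 0.81 ± 0.21 log2 units in cortex (adjusted p = 0.029) and by 1.05 ± 0.26 in hippocampus (adjusted p = 0.022). The call held in 8 of 18 alternatives in cortex and 13 of 18 in hippocampus. Leaving out pool 5, 6, 9, 10 or 11 ended it in cortex (0.64 to 0.90, adjusted p of 0.0524 to 0.121) and likewise in hippocampus (0.90 to 1.11, adjusted p of 0.0624 to 0.146). In cortex it was also lost without wells of over 10% ribosomal RNA (0.47, adjusted p = 0.339), with no pool in the model (0.59, adjusted p = 0.182), with quality weights (0.61, adjusted p = 0.0706) and when the mouse left out was added under its sheet treatment (0.75, adjusted p = 0.0738) or its name treatment (0.64, adjusted p = 0.114).

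Plin2, the droplet coat protein perilipin 2, held 7.87, 11.4 and 16 CPM in FAD IgG cortex, against 3.35, 6.25 and 7.88 CPM in WT cortex. In hippocampus it held 7.23, 11.2 and 13.9 CPM in FAD IgG, against 2.06, 5.11 and 8.26 CPM in WT. In cortex 6 of 7 FAD IgG wells exceeded every WT well. The rise was 0.92 ± 0.21 log2 units in cortex (adjusted p = 0.00847), held in all 18 alternatives, and 0.93 ± 0.24 in hippocampus (adjusted p = 0.0241). The hippocampal call was lost without pool 5, 7, 10 or 11 (0.79 to 0.92, adjusted p of 0.0595 to 0.137) and with only the 2 groups compared (0.91, adjusted p = 0.0999).

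Ch25h makes 25-hydroxycholesterol, an oxysterol ligand of liver X receptors. The 7 FAD IgG cortex wells held 3 to 13 counts each (1.23, 2.55 and 3.15 CPM as lowest, median and highest), against 1 to 4 counts in the 9 WT wells (0.26, 0.606 and 1.14 CPM). FAD IgG hippocampus held 3 to 19 counts a well (0.904, 3.07 and 5.17 CPM), against 0 to 3 in WT (0 to 0.859 CPM), with 2 WT wells at 0. FAD IgG wells all lay above WT wells in both regions. Summed over wells, Ch25h had 57 counts in FAD IgG and 19 in WT cortex, and 70 in FAD IgG and 11 in WT hippocampus. With no filter on low counts, an alternative fit gave 2.04 ± 0.41 log2 units in cortex (adjusted p = 0.00104) and 2.74 ± 0.50 in hippocampus (adjusted p = 0.000598).

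Both regions of each mouse were also fitted together with limma voom, with the mouse as a block, and the effect was averaged over regions. The same 6 genes rose in FAD IgG over WT, as did 5.96% of all genes tested (2.19% fell, 8.16% in either direction), with log2 fold changes of 0.64 ± 0.10 for Apoe, 0.88 ± 0.13 for Apod, 0.87 ± 0.16 for Abca1, 1.09 ± 0.13 for Lpl, 0.86 ± 0.16 for Soat1 and 0.95 ± 0.18 for Plin2. Ch25h was called as well, at 2.25 ± 0.35 (adjusted p = 3.48e-06), but it entered the fit through 7 FAD wells and no WT well, so that a difference was built into its passing. Clu stood at 0.45 ± 0.16 (adjusted p = 0.0792), Apoc1 at 0.56 ± 0.27 (adjusted p = 0.217) and Abcg1 at 0.20 ± 0.17 (adjusted p = 0.553). Clu was called in 4 of 11 alternatives of this fit, among them quality weights (0.50 ± 0.10, adjusted p = 0.00035).

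**Figure D2:**
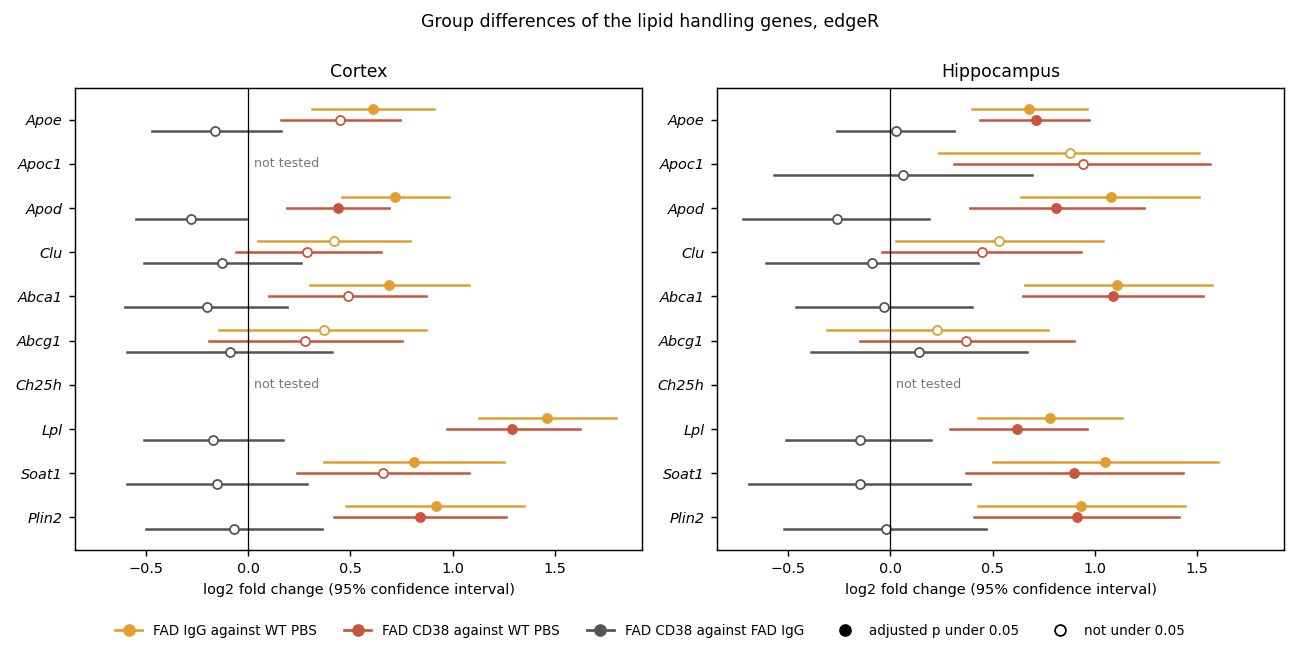
Log2 fold changes with 95% confidence intervals (horizontal axes) of the members in cortex and hippocampus for 3 comparisons, from edgeR fits over all genes, with filled points where the adjusted p was under 0.05. The points of the comparisons with WT lie right of 0 (Lpl at 1.46 for FAD IgG and 1.29 for FAD CD38 in cortex). Their intervals include 0 for Abcg1 in each case, such as -0.31 to 0.77 for FAD IgG in hippocampus. They also do for Clu in FAD CD38 against WT (-0.06 to 0.65 in cortex, -0.04 to 0.93 in hippocampus). The intervals of FAD CD38 against FAD IgG include 0 except that of Apod in cortex (-0.55 to -0.01).

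The 250 bases before the start of Abca1, Soat1 and Plin2, the members of cholesterol export, esterification and droplet storage that rose in both regions, are shown from RefSeq (build GRCm38.p6, minus strand, 5' to 3'). Capitals mark the TATA box TATAAA, the CCAAT box, the GC box GGGCGG and the nuclear receptor half-site AGGTCA, each searched on both strands and with AGGTCA being TGACCT when read on the other strand.
Abca1, chr4:53159896-53160145: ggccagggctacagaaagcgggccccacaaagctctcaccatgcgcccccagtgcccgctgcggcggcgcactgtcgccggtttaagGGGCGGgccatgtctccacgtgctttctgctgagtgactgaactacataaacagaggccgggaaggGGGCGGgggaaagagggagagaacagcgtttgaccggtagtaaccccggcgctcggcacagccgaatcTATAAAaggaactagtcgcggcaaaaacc
Soat1, chr1:156474329-156474578: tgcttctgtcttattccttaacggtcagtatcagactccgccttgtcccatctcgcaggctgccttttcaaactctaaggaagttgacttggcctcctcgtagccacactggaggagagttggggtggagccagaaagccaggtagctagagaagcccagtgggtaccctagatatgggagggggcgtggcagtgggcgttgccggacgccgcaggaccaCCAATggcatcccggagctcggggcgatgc
Plin2, chr4:86670060-86670309: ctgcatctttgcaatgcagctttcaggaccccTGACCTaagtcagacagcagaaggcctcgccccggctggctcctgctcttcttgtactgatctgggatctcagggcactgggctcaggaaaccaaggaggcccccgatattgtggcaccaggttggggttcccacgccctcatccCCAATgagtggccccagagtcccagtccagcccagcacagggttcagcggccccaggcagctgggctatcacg
In these windows, Abca1 held TATAAA from position -29 and GGGCGG from -163 and -97, Soat1 held CCAAT from -30, and Plin2 held CCAAT from -73 and AGGTCA from -218 on the other strand, counted from the gene's start. Of 32851 windows of the same length, 12.4% held TATAAA, 33.8% CCAAT, 32.7% GGGCGG and 14% AGGTCA. A direct repeat of AGGTCA with 4 bases between the copies, the kind bound by liver X receptors, was searched on both strands with up to 2 mismatches. It was in none of the 8 windows of the 6 members with an entry (Soat1, Abca1, Plin2, Apoe, Apod and Ch25h) and in 2.57% of all windows. Copies with more mismatches were not counted, such as tgaccggtagtaaccc in the Abca1 window. The repeat with 1 base between the copies, the kind bound by peroxisome proliferator-activated receptors, overlapped the half-site of Plin2 with 2 mismatches and was in 3.24% of all windows. A match of letters is a description and not a site, and windows without a match say nothing of these receptors.

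Within groups, members moved with the ribosomal RNA share of the well. After group and pool were taken out of both, log2 CPM of Clu fell as the log2 share rose over the 22 hippocampus wells (Pearson r = -0.92, Spearman rho = -0.85, permutation p = 1e-05 for both, the smallest that 100000 permutations give, adjusted p = 8e-05 over 20 relations of each kind). Without the 2 wells whose log2 share, with group and pool taken out, lay farthest from its median, r was -0.86. Abcg1 went the other way in hippocampus (r = 0.91, rho = 0.81, permutation p = 1e-05 and 5e-05, adjusted 8e-05 and 0.000286, r = 0.85 without the 2 wells). In the 23 cortex wells the values were r = -0.89 and rho = -0.84 for Clu (permutation p = 1e-05 for both, adjusted 8e-05) and r = 0.71 and rho = 0.68 for Abcg1 (permutation p = 0.00014 and 0.00052, adjusted 0.00056 and 0.0016), with r of -0.86 and 0.67 without the 2 wells. Apoe went with Clu (r = -0.64, rho = -0.66 in cortex, r = -0.80, rho = -0.73 in hippocampus, all adjusted permutation p of 0.00227 or less) and Soat1 with Abcg1 (r = 0.58, rho = 0.65 in cortex, r = 0.74, rho = 0.73 in hippocampus, all adjusted permutation p of 0.00855 or less). Apod (r = -0.56, rho = -0.54 in cortex, r = -0.66, rho = -0.46 in hippocampus, adjusted permutation p of 0.046 or less) and Plin2 (r = -0.57, rho = -0.56 in cortex, r = -0.73, rho = -0.67 in hippocampus, adjusted permutation p of 0.00913 or less) went with Clu too, as did Apoc1 in hippocampus (r and rho = -0.63, adjusted permutation p = 0.0041). Without the 2 wells r was -0.50 and -0.37 for Apod and -0.36 and -0.61 for Plin2 in cortex and hippocampus, and -0.51 for Apoc1. For Lpl in hippocampus r was -0.49 (permutation p = 0.0229, adjusted 0.0352) and rho -0.27 (permutation p = 0.22, adjusted 0.252), and r was -0.27 without the 2 wells, so that it rests on them. For Lpl in cortex r was -0.15 (permutation p = 0.508, adjusted 0.521) and rho -0.20 (permutation p = 0.354, adjusted 0.383), and for Abca1 in cortex r was 0.26 (permutation p = 0.236, adjusted 0.262) and rho 0.29 (permutation p = 0.174, adjusted 0.205). The permuted values were residuals, which are not independent once group and pool are fitted, so these p-values are approximate and can be too small. How many of all genes moved with the share was not counted, so the relation is not shown to be particular to the members. A CPM and a share of counts have the same denominator.

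**Figure D3:**
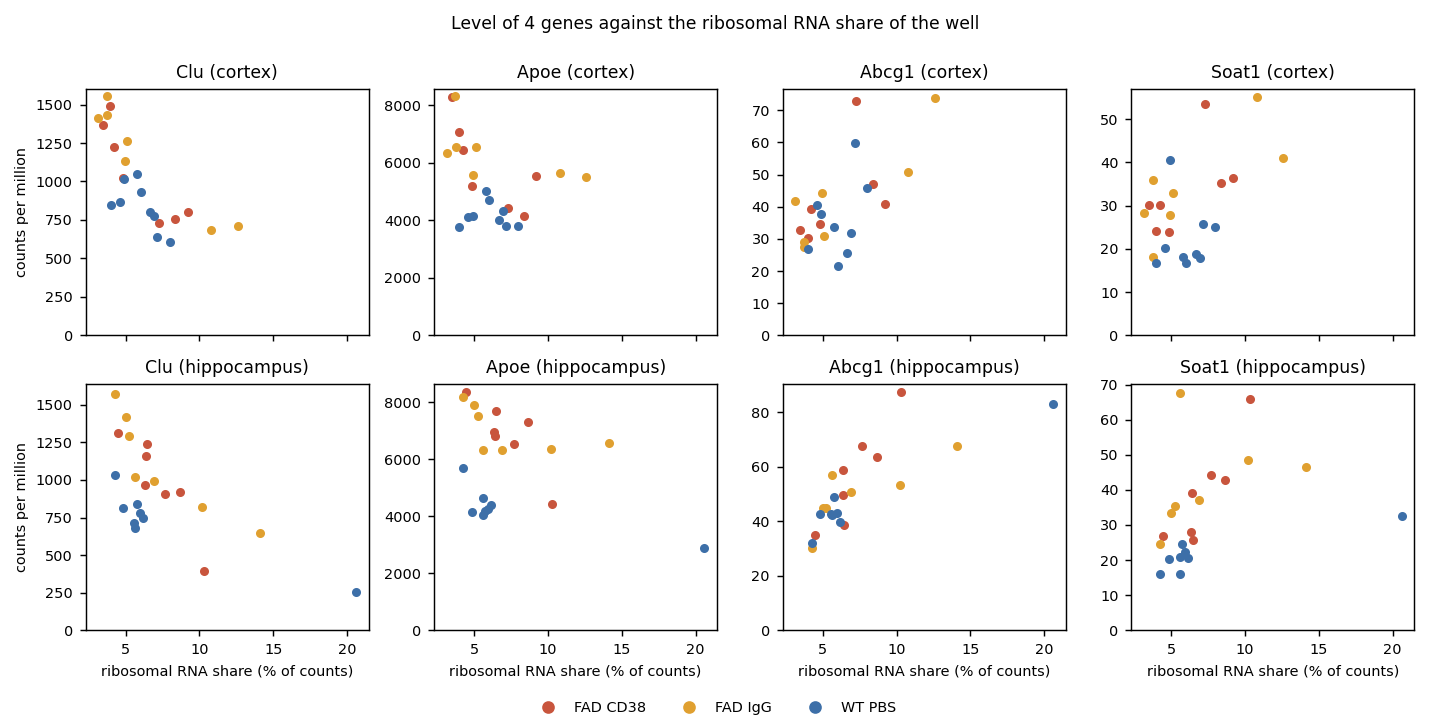
CPM of Clu, Apoe, Abcg1 and Soat1 (vertical axes) against the ribosomal RNA share in percent of counts (horizontal axis), 1 point a well, for cortex (top) and hippocampus (bottom). The WT hippocampus well at 20.6% has the lowest Clu level of its group, 254 CPM, and the highest Abcg1 level, 83.2 CPM.

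Group shares of ribosomal RNA overlapped: medians were 4.83% in FAD CD38, 4.94% in FAD IgG and 6.02% in WT cortex, and 6.47%, 5.61% and 5.68% in FAD CD38, FAD IgG and WT hippocampus. With the log2 share added to the model, an alternative chosen after seeing the data, the standard errors of Clu and Abcg1 fell to 0.11 and 0.12 in hippocampus, against 0.24 and 0.26 without it. In that fit Clu was 0.65 log2 units higher in FAD IgG than WT hippocampus (adjusted p = 0.00011), and Apoc1 0.96 ± 0.25 higher (adjusted p = 0.0178). Apoc1 had passed the filter mainly through FAD wells, as given above, so a difference was partly built into its being tested. Clu in cortex was at 0.35 ± 0.12 (adjusted p = 0.0595). Abcg1 stayed uncalled, at 0.38 ± 0.15 in cortex (adjusted p = 0.104) and 0.07 in hippocampus (adjusted p = 0.816). Averaged over regions, Clu was at 0.48 ± 0.09 (adjusted p = 4.16e-05). The fit also called more of all genes tested, 9.15% in cortex and 8.06% in hippocampus in either direction, against 3.87% and 4.89% without the share.

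**Figure D4:**
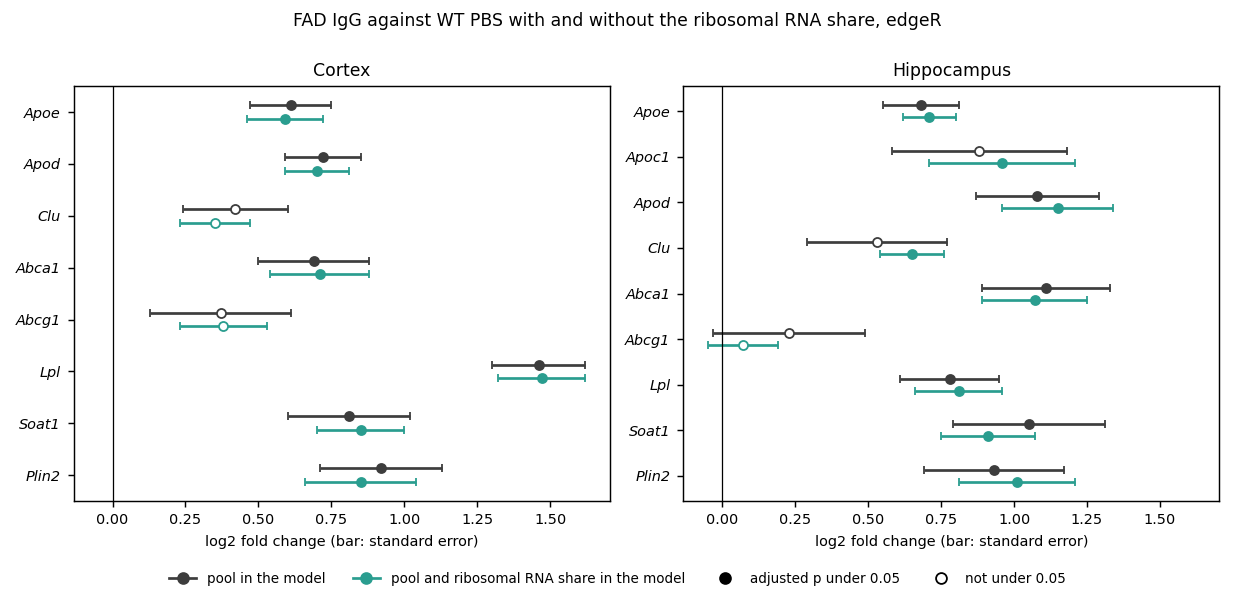
Log2 fold changes of FAD IgG against WT PBS with standard errors (horizontal axes), with the pool alone and with pool and ribosomal RNA share in the edgeR model, filled where the adjusted p was under 0.05. In hippocampus the bar of Clu shrinks to 0.11 and its point becomes filled at 0.65, while Abcg1 moves to 0.07.

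FAD CD38 mice were set against FAD IgG mice to ask whether the treatment changed these genes in the disease line. No gene of any kind was called: 0% of 12968 genes in cortex, of 12728 in hippocampus and of 13447 in the fit of both regions. At an unadjusted p under 0.05 edgeR gave 195 genes in cortex and 197 in hippocampus and limma 255 over both regions, and DESeq2 also called none in either region. Wells of FAD CD38 lay above all wells of FAD IgG for 0.00771% of genes in cortex and 0.00786% in hippocampus, none of them a member. In cortex all 8 members tested had negative estimates, from -0.28 to -0.07 log2 units, with a median of -0.15 against 0.00 over all genes. In hippocampus 3 of 9 were positive and 6 negative, from -0.26 to 0.14, with a median of -0.03 against 0.01. Uncalled estimates of cell markers also lay below 0 in cortex, for 11 of 12 homeostatic microglia, 9 of 14 plaque-associated microglia, 7 of 10 astrocyte, 7 of 7 reactive astrocyte, 9 of 10 oligodendrocyte, 6 of 6 mural and 7 of 7 fibroblast markers, against 3 of 10 neuronal ones. In cortex they did so as well for 7 of 9 endothelial, 1 of 6 oligodendrocyte precursor and 0 of 2 choroid plexus markers. In hippocampus 11 of 12 homeostatic microglia, 4 of 14 plaque-associated microglia and 5 of 8 reactive astrocyte markers were below 0. So were 8 of 10 astrocyte, 10 of 10 oligodendrocyte, 4 of 6 oligodendrocyte precursor and 6 of 8 endothelial markers there. The other counts below 0 were 5 of 7 mural, 7 of 8 fibroblast, 2 of 3 choroid plexus and 5 of 10 neuronal. The share of all genes below 0 was not counted. The part of these cells in the members' estimates was not tested.

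Apod had the lowest estimate in each region and averaged over both. It held 300, 443 and 747 CPM in FAD CD38 cortex, against 432, 545 and 705 CPM in FAD IgG cortex, and 253, 382 and 720 CPM in FAD CD38 hippocampus, against 337, 536 and 657 CPM in FAD IgG hippocampus. FAD CD38 was below FAD IgG in 5 of 6 pools in each region, and the wells overlapped. The difference of -0.28 log2 units in cortex (95% confidence interval -0.55 to -0.01) had an unadjusted p of 0.0451 and an adjusted p of 1, and averaged over regions it was -0.28 (-0.56 to -0.01, unadjusted p = 0.0405, adjusted p = 1).

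For Apoe the interval of FAD CD38 against FAD IgG was -0.47 to 0.16 in cortex and -0.26 to 0.31 in hippocampus. For Lpl it was -0.51 to 0.17 in cortex and -0.51 to 0.20 in hippocampus. The FAD CD38 mouse of pool 7 had the lowest Lpl of its group in both regions (28 CPM in hippocampus and 24.2 CPM in cortex), with 1428454 counts and 10.3% ribosomal RNA in its hippocampus well. Without pool 7 the Lpl differences were -0.02 ± 0.13 and -0.03 ± 0.15. Intervals of Abca1 (-0.60 to 0.19 in cortex, -0.46 to 0.40 in hippocampus), Soat1 (-0.59 to 0.29 and -0.69 to 0.39) and Plin2 (-0.50 to 0.36 and -0.52 to 0.47) were as wide, so changes of that size in either direction are not resolved. Averaged over regions, Ch25h differed by 0.07 log2 units (-0.55 to 0.68), Clu by -0.10 (-0.43 to 0.23) and Abcg1 by 0.06 (-0.29 to 0.41).

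Against WT, FAD CD38 mice had 3 of 8 members higher in cortex and 6 of 9 in hippocampus, beside 3.3% and 4.56% of all genes tested, and none lower, beside 1.23% and 0.754% (4.53% and 5.31% in either direction). This comparison uses the same WT wells as that of FAD IgG. Lpl held 24.2, 44.2 and 63.7 CPM in FAD CD38 cortex, against 10.5, 19.2 and 22.6 CPM in WT cortex, with no overlap (1.6% of all genes tested, 2.17% in hippocampus) and a rise of 1.29 ± 0.16 log2 units (adjusted p = 3.37e-06). Plin2 rose by 0.84 ± 0.20 (adjusted p = 0.0137) and Apod by 0.44 ± 0.12 (adjusted p = 0.0347) in cortex. Apoe, at 4143, 5558 and 8285 CPM in FAD CD38 cortex against 3761, 4121 and 5030 CPM in WT, was not called (0.45 ± 0.14, adjusted p = 0.066). Soat1 (0.66 ± 0.20, adjusted p = 0.0659) and Abca1 (0.49 ± 0.18, adjusted p = 0.145) were not called either. Leaving out pool 6 left 1 member called in cortex, Lpl. DESeq2 called 5 and the fit with the ribosomal RNA share 6 members there.

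In hippocampus, FAD CD38 exceeded WT for Abca1 (1.09 ± 0.21, adjusted p = 0.00214), Plin2 (0.91 ± 0.24, adjusted p = 0.0269), Soat1 (0.90 ± 0.25, adjusted p = 0.0457), Apod (0.81 ± 0.20, adjusted p = 0.02), Apoe (0.71 ± 0.13, adjusted p = 0.00114) and Lpl (0.62 ± 0.16, adjusted p = 0.025). Abca1 held 11.2, 15.5 and 22.4 CPM in FAD CD38, against 4.01, 8.2 and 12 CPM in WT, with 6 of 7 FAD CD38 wells above all WT wells. Without pool 5 or pool 10, or with only the 2 groups compared in the fit, 2 members were called, Apoe and Abca1 in each case. Over both regions, limma called the same 6 genes and Ch25h (2.32 ± 0.34, adjusted p = 1.18e-06, with the limit on its passing given above), as it did 5.9% of all genes upward (2.99% downward, 8.89% in either direction). The other 3 were Clu (0.34 ± 0.15, adjusted p = 0.164), Apoc1 (0.48 ± 0.26, adjusted p = 0.28) and Abcg1 (0.25 ± 0.16, adjusted p = 0.362). Clu was called with the ribosomal RNA share in the model (0.36 ± 0.08, adjusted p = 0.00121), with quality weights (0.37 ± 0.10, adjusted p = 0.00616) and without pool 7 (0.47 ± 0.15, adjusted p = 0.0428), and Abcg1 with the share (0.27 ± 0.10, adjusted p = 0.0486) and without pool 8 (0.47 ± 0.16, adjusted p = 0.0396).

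Markers of microglia and reactive astrocytes rose in FAD CD38 against WT as well. In cortex 8 of 12 homeostatic microglia, 13 of 14 plaque-associated microglia and 7 of 7 reactive astrocyte markers were called higher, and in hippocampus 8 of 12, 14 of 14 and 8 of 8. The plaque-associated list summed to 933 to 2056 CPM in FAD CD38 cortex, against 196 to 278 CPM in WT, and to 729 to 1937 CPM in FAD CD38 hippocampus, against 123 to 265 CPM in WT. The homeostatic list summed to 322 to 671 CPM in FAD CD38 cortex, against 214 to 311 CPM in WT, and to 321 to 608 CPM in FAD CD38 hippocampus, against 202 to 277 CPM in WT. Reactive astrocyte markers summed to 451 to 792 CPM in FAD CD38 cortex, against 119 to 162 CPM in WT, and to 543 to 1090 CPM in FAD CD38 hippocampus, against 120 to 205 CPM in WT. Of the other lists, 1 of 10 astrocyte, 1 of 10 oligodendrocyte and 1 of 10 neuronal markers were called higher in cortex. There 1 of 9 endothelial markers was called lower. In hippocampus 2 of 10 astrocyte and 1 of 10 oligodendrocyte markers were called higher, and none of the endothelial or neuronal ones. No marker of oligodendrocyte precursors, mural cells, fibroblasts or choroid plexus was called in either region. The part of these cells in the members' rise was not tested.

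The size of the FAD IgG effect was compared between hippocampus and cortex with an interaction term. No member was called at an adjusted p under 0.05, and 0.223% of all genes were (0.201% with a more positive effect in hippocampus, 0.0223% with a more negative one). Lpl had the only member estimate with an unadjusted p under 0.01, -0.59 ± 0.19 log2 units (unadjusted p = 0.00266, adjusted p = 0.284), a smaller rise in hippocampus. Sample quality weights, under which 379 genes were called instead of 30, gave -0.60 ± 0.14 (adjusted p = 0.0162). The estimate was 0.40 ± 0.19 for Apod (adjusted p = 0.608), 0.44 ± 0.24 for Abca1 (adjusted p = 0.647), 0.99 ± 0.49 for Ch25h (adjusted p = 0.618) and 0.15 ± 0.15 for Apoe (adjusted p = 0.828).

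In 8 WT mice with both regions, hippocampus and cortex were compared within the mouse by edgeR, and 27.8% of all genes tested were called, 14.3% higher and 13.5% lower in hippocampus. Of 8 members tested, Lpl and Abcg1 were higher in hippocampus and Apod and Clu lower. Cell markers differed between the regions too: 4 of 8 endothelial, 4 of 8 fibroblast, 4 of 10 astrocyte and 3 of 10 plaque-associated microglia markers were lower in hippocampus, 3 of 6 reactive astrocyte markers were higher and 1 lower, 1 marker each of fibroblasts, astrocytes and plaque-associated microglia was higher, and 0 of 12 homeostatic microglia markers was called. Lower in hippocampus were also 2 of 10 oligodendrocyte markers and 1 of 10 neuronal markers. Of 6 mural and 2 choroid plexus markers, 1 each was higher and 1 each lower. No marker of oligodendrocyte precursors was called. The part of these cells in the members' differences was not tested. Lpl was 2.56-fold higher (log2 1.36 ± 0.12, adjusted p = 9.33e-09), with hippocampus above cortex in 8 of 8 mice, and its FAD IgG cortex wells (27.4 to 62.1 CPM) lay in and around the range of WT hippocampus (29.6 to 57.2 CPM). Hippocampal Lpl was above cortical Lpl in 7 of 7 FAD CD38 mice and 7 of 7 FAD IgG mice too, with median ratios of 1.66 and 1.56, against 2.58 in the 8 WT mice.

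Abcg1 was 0.46 ± 0.11 log2 units higher in hippocampus (adjusted p = 0.00385, in 8 of 8 WT mice). Apod was lower there, with a log2 difference of -0.54 ± 0.11 (adjusted p = 0.000867) and lower levels in 7 of 8 WT mice. Clu, at -0.33 ± 0.12, was just inside the threshold (adjusted p = 0.05 after rounding up), with 7 of 8 mice lower. Without the mouse as a block, and with the pool in its place, 2 members were called, since Abcg1 (0.40 ± 0.17, adjusted p = 0.117) and Clu (-0.26 ± 0.18, adjusted p = 0.351) were not. Without wells of over 10% ribosomal RNA, Clu was at -0.23 ± 0.09 (adjusted p = 0.0505). Apoe (-0.04 ± 0.13), Soat1 (-0.01 ± 0.13), Abca1 (0.10 ± 0.19) and Plin2 (-0.21 ± 0.22) were not called.

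**Figure D5:**
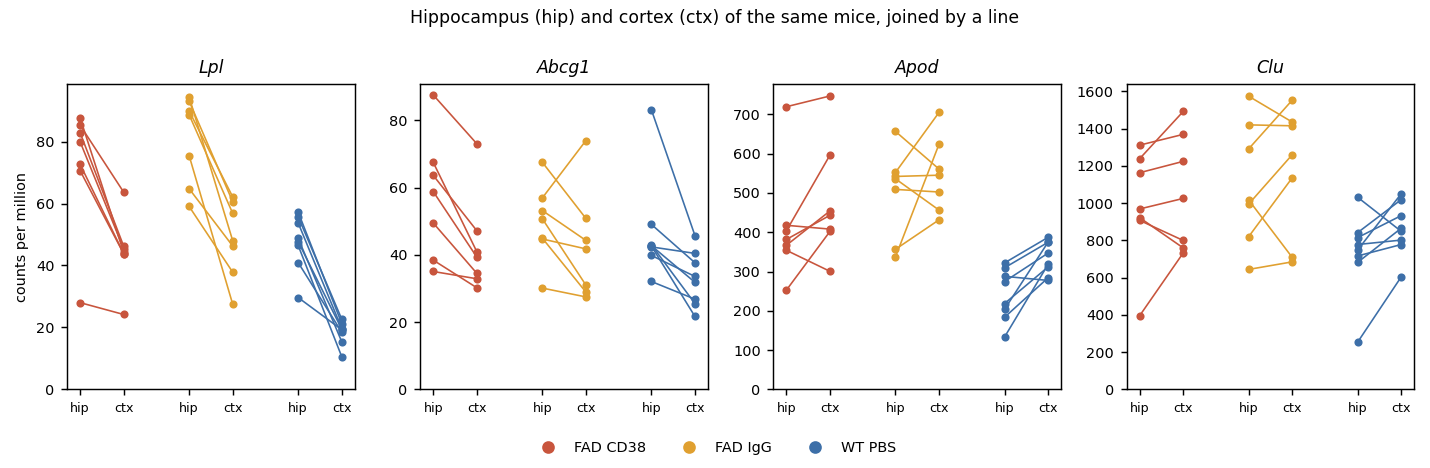
CPM (vertical axes, from 0) of Lpl, Abcg1, Apod and Clu in hippocampus (hip) and cortex (ctx) of the same mouse, joined by a line, for FAD CD38, FAD IgG and WT PBS mice. Lpl falls from left to right in every mouse (7 of 7, 7 of 7 and 8 of 8), and Abcg1 does so in 7 of 7, 6 of 7 and 8 of 8.

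Other genes of lipid transport and storage were taken from 5 lists and set beside the members for FAD IgG against WT. Of lipoprotein receptors, 2 of 11 tested rose in each region and none fell. Among them, Trem2, the microglial receptor that binds lipids and lipoproteins, rose by 2.96 ± 0.18 log2 units in cortex and 3.03 ± 0.21 in hippocampus. Vldlr, another receptor for Apoe, was at -0.03 ± 0.11 in cortex and 0.02 ± 0.14 in hippocampus.

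Among genes of sterol efflux and the liver X receptor pathway, 2 of 22 tested rose in cortex and 4 of 21 in hippocampus, and none fell. Npc2, which hands cholesterol out of the lysosome, rose by 0.93 ± 0.13 and 1.20 ± 0.12, and held 203 to 273 CPM in FAD IgG cortex, against 102 to 140 CPM in WT. Lipa, the lysosomal acid lipase that frees cholesterol from esters, rose by 0.65 ± 0.17 and 0.69 ± 0.19. In hippocampus the others were Srebf1, a regulator of lipid synthesis and liver X receptor target (0.86 ± 0.13), and Lpcat3, which remodels phospholipids (0.68 ± 0.19, adjusted p = 0.0489). The median of the list was 0.22 in cortex and 0.30 in hippocampus, against 0.01 and 0.00 over all genes.

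No gene of lipid droplets and neutral lipid was called beside Plin2 and Soat1 in FAD IgG against WT (0 of 17 in cortex, 0 of 18 in hippocampus). Plin4, a relative of Plin2, was at 1.16 ± 0.34 in cortex (adjusted p = 0.0569) and was called over both regions (1.35 ± 0.31, adjusted p = 0.00243). Of partners of Lpl and fatty acid carriers, Fabp7, the fatty acid binding protein of astrocytes and neural precursors, rose in hippocampus (0.86 ± 0.23, 1 of 8 tested) and none of 8 in cortex. Of the other apolipoproteins, none could be tested in cortex and 1 in hippocampus, which was not called.

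In FAD CD38 against WT, 2 of 11 lipoprotein receptors rose in cortex and 3 of 11 in hippocampus. Trem2 rose by 2.88 ± 0.18 log2 units in cortex and 3.15 ± 0.20 in hippocampus, and Lrp1, a large receptor for Apoe, by 0.47 ± 0.12 (adjusted p = 0.0284) and 0.47 ± 0.13 (adjusted p = 0.0373). Of the efflux genes, Npc2 rose by 0.77 ± 0.12 in cortex (1 of 22) and by 1.25 ± 0.11 in hippocampus (3 of 21), where Srebf1 (0.64 ± 0.12) and Mylip, a ubiquitin ligase and liver X receptor target (0.90 ± 0.26, adjusted p = 0.0467), were the others. Plin4 was called in cortex (1.27 ± 0.33, adjusted p = 0.0231, 1 of 17 droplet genes) and no droplet gene in hippocampus. Slc27a1, a fatty acid transport protein, was the 1 gene of these lists that fell, at -0.51 ± 0.11 in cortex (adjusted p = 0.00685).

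Markers of microglia and reactive astrocytes rose as well. In FAD IgG against WT, 9 of 12 homeostatic microglia markers rose in cortex and 11 of 12 in hippocampus, as did 13 and 14 of 14 plaque-associated microglia markers, which include Trem2. The summed level of the homeostatic list was 439 to 704 CPM in FAD IgG cortex, against 214 to 311 CPM in WT, and 441 to 655 CPM in FAD IgG hippocampus, against 202 to 277 CPM in WT. The plaque-associated list summed to 1111 to 1791 CPM in FAD IgG cortex, against 196 to 278 CPM in WT, and to 1220 to 2015 CPM in FAD IgG hippocampus, against 123 to 265 CPM in WT. Reactive astrocyte markers rose in 7 of 7 tested in cortex and 8 of 8 in hippocampus, summing to 516 to 883 CPM in FAD IgG cortex, against 119 to 162 CPM in WT, and to 777 to 1389 CPM in FAD IgG hippocampus, against 120 to 205 CPM in WT. The part of these cells in the rise of Apoe, Apod, Abca1, Lpl, Soat1 and Plin2 was not tested.

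General astrocyte markers rose in 1 of 10 in cortex and 4 of 10 in hippocampus, with sums of 3122 to 5081 CPM in FAD IgG cortex, against 2628 to 4413 CPM in WT, and of 2885 to 4532 CPM in FAD IgG hippocampus, against 2776 to 4241 CPM in WT. Of 10 oligodendrocyte markers 1 rose in each region, and none of the markers of oligodendrocyte precursors, endothelium, mural cells, fibroblasts, choroid plexus or neurons was called. Choroid plexus markers, a tissue rich in Clu, summed to 87 to 15958 CPM in FAD CD38 hippocampus, to 76 to 9058 CPM in FAD IgG hippocampus and to 95 to 379 CPM in WT hippocampus. After group and pool were taken out, Clu and this sum, in log2 CPM, had r = -0.56 over 22 hippocampus wells. In the 23 cortex wells r was 0.01. Other marker sums had larger r with Clu in hippocampus. They were plaque-associated microglia (0.87), homeostatic microglia (0.80), oligodendrocytes (0.80), astrocytes (-0.79) and reactive astrocytes (0.78). The part of choroid plexus or of these cells in the level of Clu was not tested. No marker in the table was at 0 in every well of a group, and the table held all listed markers except 2 of 9 for choroid plexus and 1 of 11 for neurons. In FAD CD38 against FAD IgG no marker was called, as no gene was.

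The genes whose levels followed each member most closely within groups were ranked by the lower of 2 correlations of residual log2 CPM, over 23 cortex and 22 hippocampus wells, among 12459 other genes, as a description. Wells share a pool, a depth and a ribosomal RNA share. Apoe was nearest to the complement gene C1qc (r = 0.89 in cortex and 0.90 in hippocampus), Mid1ip1 (0.88 and 0.88) and Npc2 (0.89 and 0.87), and Apod to C1qb (0.80 and 0.80) and C1qc (0.79 and 0.91). Clu was nearest to Cpe, Tmem59 and Ldhb (0.94 to 0.99), and Abcg1 to genes that include Ubfd1 and Cnot9 (0.94 to 0.96). Lower values held for Lpl with Ndp (0.71 and 0.85), Plin2 with Pex3 (0.74 and 0.81), Soat1 with Ric1 (0.83 and 0.89) and Abca1 with Trip12 (0.73 and 0.66).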

How the data were processed

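Raw counts per gene and well were used as deposited by the authors in 1 table of 47 wells and 20859 genes, and the deposited sample sheet gave each well's mouse, region, genotype and treatment. The submitters' processing notes name STAR 2.5.3a and bcl2fastq 2.17. The genome build is not given in the sources used here, nor are the counting step and its strand setting. Each of the 7 GEO samples is a library pool of several mice, so the wells, not the pools, were the units of comparison. Well pairs of 1 group and region differed beyond counting noise (lowest chi-square per degree of freedom 2.548 over 148 pairs), and none was counted as a repeat.

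Within each region, genes were kept by edgeR's filter (minimum 10 counts in a well of median depth, total of at least 15), scaled by TMM and fitted by the quasi-likelihood test of edgeR 4.0.16 in R 4.3.3 with group and pool, all 3 groups together, two-sided, with Benjamini-Hochberg adjustment over all genes and calls at 0.05. A joint fit of the 2 regions used voom in limma 3.58.1, the wells of a mouse forming a random block (correlation 0.256). Region differences in WT mice were fitted in edgeR with the mouse as a block, because both wells come from the same animal. DESeq2 1.42.0, RLE scaling, other filters, quality weights, omission of each pool, the omitted mouse counted by its name or by its sheet, and models without the pool were alternatives. The biological coefficient of variation was 0.197 in cortex and 0.23 in hippocampus. Fits were tested on simulated data.

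The 10 genes and the other gene lists were chosen with earlier results of these data known. Named genes were all 10 members, up to 4 called genes of smallest p in each other list, the 3 genes of most similar residuals, and Thy1 and App. Vldlr was named as a receptor for comparison after its values were seen, as was Plin4 in single regions. Promoters came from RefSeq. Some genes that the rule names are not reported here. Protein sequences were not used here. P-values of the main group fits measure the spread between mice that is left after the pool was fitted. Those of the region comparison in WT mice measure the spread left after the mouse was fitted.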

Additional observations from a re-analysis of the deposited data

Results flagged for a closer look

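Of 60 sets of wells (10 genes, 3 groups, 2 regions), 11 had a highest or lowest well farther from the rest than Dixon's 95% critical value, which chance alone passes in about 1 set in 20. High wells were Apoe at 8338 CPM in FAD IgG cortex of pool 7 (next 6560), Apoc1 at 11.1 CPM (next 6.51) and Apod at 720 CPM (next 418) in FAD CD38 hippocampus of pool 8, and Apoc1 at 6.83 CPM in WT hippocampus of pool 11 (next 4.19). In FAD CD38 cortex of pool 7, 1 well had Abcg1 at 73 CPM (next 47.1) and Soat1 at 53.6 CPM (next 36.3). Soat1 was at 40.6 CPM in a WT cortex well of pool 8 (next 25.7). The hippocampus of a WT mouse of pool 8, the well with 20.6% ribosomal RNA, had Clu at 254 CPM (next 682) and Abcg1 at 83.2 CPM (next 49). Low wells were Lpl at 28 CPM in FAD CD38 hippocampus of pool 7 (next 70.6) and Ch25h at 1.23 CPM in FAD IgG cortex of pool 6 (next 2.45).

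The mouse left out for its conflicting labels exceeded every WT well in 14 of 20 values, 9 in hippocampus and 5 in cortex. The share over all genes was not computed for this mouse, so the count is not a result about the members. Its hippocampus well held 5803 CPM of Apoe, 8.63 of Apoc1, 388 of Apod, 1033 of Clu, 19.6 of Abca1, 80.5 of Lpl, 4.03 of Ch25h, 35.1 of Soat1 and 13.2 of Plin2. Its cortex well held 6530 CPM of Apoe, 497 of Apod, 47.6 of Lpl, 3.34 of Ch25h and 12.9 of Plin2. Its Clu in hippocampus was barely above the highest WT well, 1031 CPM. Name and sheet both call it FAD and differ on IgG or CD38, so it entered only the alternatives that count it by its name or by its sheet.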

How the results depend on the processing

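Over 1500 values of members under alternatives, 1379 stayed on their side of the threshold, 64 lost a call, 42 gained one, 15 had no value otherwise, and none reversed a call. In FAD IgG against WT, Apoe, Apod, Lpl and Plin2 in cortex and Apoe, Apod, Abca1 and Lpl in hippocampus were called in 18 of 18 alternatives, Soat1 and Plin2 in hippocampus in 13, and Abca1 and Soat1 in cortex in 8. In FAD CD38 against WT cortex, DESeq2 called 5 members and the ribosomal RNA share as covariate (chosen after seeing the data) 6, against 3, and omission of 1 pool at a time called 1 to 4. In hippocampus, the fit of only the 2 groups called 2, against 6, and omission of 1 pool 2 to 6. For the region difference of FAD IgG, quality weights called 1 member (Lpl), against 0. In WT hippocampus against cortex, 2 members were called with no replicate block (mouse), against 4 with it. The cause of these shifts was not tested.

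Counts over all genes ranged from 368 to 1187 for FAD IgG against WT cortex (502 as reported), 435 to 1926 in hippocampus (623) and 765 to 2459 over both regions (1097). For FAD CD38 against WT they ranged from 365 to 1686 (587), 374 to 2787 (676) and 791 to 3067 (1196), and for the region difference from 6 to 379 (30). In WT hippocampus against cortex they ranged from 2473 to 4059 (3458). FAD CD38 against FAD IgG called 0 genes in each region under all 18 alternatives, and 0 to 2 over both regions. Uncalled estimates changed sign in 60 cases, of which FAD CD38 against FAD IgG had 12 in cortex, 18 in hippocampus and 11 over both regions. DESeq2 was not run for both regions together. With 1 to 4 counts of Ch25h in a WT cortex well, depth limits its fold change.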
